A study of Mus musculus with 8 samples.

Results

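The lymphoid priming genes are 10 genes that multipotent progenitors switch on, or keep on, as they become able to make lymphocytes. They were chosen by symbol: Dntt, Rag1, Rag2, Il7r, Notch1, Ikzf1, Tcf3, Ebf1, Satb1 and Ighm. Of the 29955 gene names in the RNA-seq files, 9 matched. Ighm, the constant region of the IgM heavy chain, was not among the names and has no value here. The libraries came from bone marrow of WT mice and of mice lacking Ripk3 (Ripk3-KO in the labels, Ripk3-/- here), the kinase that starts necroptosis, all on a background given as CD57BL6/J. Lin- Sca1+ Kit+ (LSK) cells, which hold hematopoietic stem cells (HSCs) and multipotent progenitors (MPPs), were sorted. So were Lin- Kit+ (LK) cells, which the study defines as Sca1- and which hold mostly myeloid progenitors. There were 2 libraries for each genotype in each population and 8 in all.

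The labels record no treatment, whereas the study describes these cells as taken after a series of low-dose X-ray exposures of both genotypes, so no unexposed group stands beside them. Neither the age of the mice nor whether the 2 libraries of a group came from separate animals is given in the sources used here. P-values by limma therefore rest on the spread between these samples, in part that of other genes, and this spread may be technical. The Ripk3-/- mice lack the gene in all cells. In bulk RNA, fewer cells of a type and less RNA per cell cannot be told apart.

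Lymphoid priming precedes commitment. Within the LSK gate, the MPPs that express the receptor tyrosine kinase Flt3 start to transcribe lymphoid genes at low levels while they can still make myeloid cells. Ikzf1 (Ikaros) and the E protein encoded by Tcf3 open lymphoid genes, Satb1 organizes chromatin loops, Il7r and Notch1 receive the signals that sustain B and T lineage progenitors, Ebf1 commits cells to the B lineage, and Rag1, Rag2 and Dntt cut and diversify antigen receptor genes.

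Recovered reads ran from 9782166 to 16280811 per library and genes above 0 from 18254 to 20358. Ripk3 itself checked the labels. Its signal, meaning reads per 1000000 scaled by the authors within LSK and within LK, was 162 and 168 in WT LSK against 3.38 and 1.08 in Ripk3-/- LSK, and 144 and 150 in WT LK against 16.2 and 10.6 in Ripk3-/- LK. All 4 WT libraries held 1589 to 4050 reads of Xist and 0 reads of 4 Y-linked genes, whereas all 4 Ripk3-/- libraries held 0 to 13 Xist reads and 1026 to 1383 Y-linked reads. Of the 4 Y-linked genes, Ddx3y had 0 reads in all 8 libraries and tells nothing of sex. Uty and Eif2s3y held most of the Y-linked reads. By these reads the WT libraries were female and the Ripk3-/- libraries male, so sex and genotype cannot be told apart in any genotype difference given here. The sort markers fitted the gates. Kit and Cd34 were read in every library, and Ly6a, which encodes Sca1, stood at 123 to 207 CPM in LSK and at 0.142 to 4.68 CPM in LK. CPM here means recovered reads per 1000000, rescaled over all 8 libraries so that LSK and LK can be compared.

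The 3 genes whose products act on the antigen receptor loci themselves had unlike levels, and the letters before their start sites are shown to set them side by side. Gene positions here are those of GENCODE M21 on GRCm38. Dntt lies at chr19:41029275-41059525, plus strand. Rag1 (chr2:101638282-101649501, minus strand) and Rag2 (chr2:101624718-101632529, plus strand) lie 5752 bases apart, tail to tail. The windows are the 250 bases upstream of the RefSeq starts on GRCm38.p6, at chr19:41029025-41029274 (plus strand), chr2:101649533-101649782 (minus strand) and chr2:101624462-101624711 (plus strand). Capitals mark matches to the E box letters CAGCTG or CAGGTG, which E proteins bind, and to TGGGAA, the core shared by Ikaros and by the Notch partner RBPJ.
Dntt: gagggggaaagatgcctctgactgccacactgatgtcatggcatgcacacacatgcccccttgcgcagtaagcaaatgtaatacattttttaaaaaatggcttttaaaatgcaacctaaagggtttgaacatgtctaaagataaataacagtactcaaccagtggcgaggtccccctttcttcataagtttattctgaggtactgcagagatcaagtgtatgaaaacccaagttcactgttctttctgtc
Rag1: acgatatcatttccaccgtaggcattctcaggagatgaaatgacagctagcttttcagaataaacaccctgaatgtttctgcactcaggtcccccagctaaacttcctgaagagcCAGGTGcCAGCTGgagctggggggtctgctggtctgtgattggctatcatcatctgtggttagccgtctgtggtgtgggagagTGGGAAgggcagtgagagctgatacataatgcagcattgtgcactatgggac
Rag2: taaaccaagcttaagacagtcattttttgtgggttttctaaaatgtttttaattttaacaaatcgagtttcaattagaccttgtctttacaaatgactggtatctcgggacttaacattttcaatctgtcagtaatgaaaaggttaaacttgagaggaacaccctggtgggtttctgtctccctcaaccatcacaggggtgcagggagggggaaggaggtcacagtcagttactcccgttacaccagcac

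Both strands were searched, with CACCTG and TTCCCA as the reverse forms, and TGGGAA cannot be assigned to Ikaros rather than RBPJ because both cores use these letters. The Rag1 window held CAGGTG at 135, CAGCTG at 128 and TGGGAA at 52 bases before the start. The Dntt and Rag2 windows held none of these letters. Over all 32851 RefSeq windows of this length, 27.7% held an E box of either kind and 21.6% held TGGGAA. RefSeq gave windows for 9 of the 10 members, 15 windows in all. E box letters were found for 2 of the 9, Rag1 and Satb1, and TGGGAA for 3, Rag1, Satb1 and Ebf1. The Satb1 matches lay before start sites 3 and 5 of its 5, in windows whose 250 bases were all annotated as exon. Members with several start sites have more windows to match, so counts of members are not directly comparable with shares of windows. CCCNNGGG, the palindrome of the EBF1 type, was found for 1, Ikzf1, against 11.8% of all windows. These matches are letters in a window and not sites shown to be bound.

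Dntt, which encodes terminal deoxynucleotidyl transferase and adds untemplated bases at V(D)J junctions, was the member with the most transcript in LSK. Its level was 231 and 229.6 CPM in the WT LSK libraries, 433 and 376 in Ripk3-/- LSK, 22.5 and 12.7 in WT LK, and 24.4 and 24.8 in Ripk3-/- LK. Every LSK library lay above every LK library. The LSK mean was 13.0-fold the LK mean in WT and 16.5-fold in Ripk3-/- cells. By limma, the difference LSK minus LK was 3.68 on the log2(CPM + 1) scale (SE 0.26, adjusted p = 6.3e-10) in WT and 3.98 (SE 0.26, adjusted p = 1.2e-10) in Ripk3-/- cells. It passed under all 17 alternatives in both genotypes.

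The recombinase genes Rag1 and Rag2, which encode the pair of proteins that cut the receptor loci, were near the limit of detection. Rag1 had 29 and 1 reads in WT LSK, 0 and 9 in Ripk3-/- LSK, 4 and 64 in WT LK, and 30 and 3 in Ripk3-/- LK. The libraries of one group differed more than the groups did, and the groups overlapped throughout. Rag2 had 11 and 85 reads in WT LSK, 37 and 89 in Ripk3-/- LSK, 16 and 6 in WT LK, and 60 and 65 in Ripk3-/- LK. Both Ripk3-/- LK libraries lay above both WT LK libraries for Rag2, and the LSK libraries of the genotypes overlapped. Neither gene passed in any comparison. For LSK against LK in WT, the difference was -0.57 (95% interval -2.17 to 1.02) for Rag1 and 1.17 (-0.31 to 2.64, adjusted p = 0.230) for Rag2 on the log2(CPM + 1) scale. The Rag2 call in this comparison changed in 1 of 15 alternatives, the fit without WT LSK 1. The WT LK mean of Rag2 was 0.878 CPM, so Rag2 entered the WT test only through LSK, and its WT values are given as a description. Part of B230118H07Rik overlaps exons of both genes, and whether the counting used strand is not given in the sources used here, so that reads in 80 bases of Rag1 and 208 bases of Rag2 are uncertain.

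Il7r (chr15:9505788-9530176, minus strand), the alpha chain of the IL-7 receptor, was read mainly in LSK. It had 115 and 66 reads in WT LSK, 124 and 64 in Ripk3-/- LSK, 18 and 0 in WT LK, and 33 and 0 in Ripk3-/- LK, which equals 10.02, 6.001, 8.83, 5.48, 1.39, 0, 2.38 and 0 CPM in the same order. All 4 LSK libraries lay above all 4 LK libraries, and 1 LK library of each genotype had no read, where 3 reads would stand at 0.258 CPM in WT LK 2 and 0.213 CPM in Ripk3-/- LK 2. The difference LSK minus LK was 2.51 (SE 0.69, adjusted p = 0.0119) in WT and 2.12 (SE 0.70, adjusted p = 0.0340) in Ripk3-/- cells, on the log2(CPM + 1) scale. In WT the LK mean was 0.697 CPM, so the gene entered that test only through LSK, and the WT value is given as a description. Both calls rested on few reads. The adjusted p was 0.0844 without WT LSK 1 and 0.138 without WT LK 2 in WT, and 0.163, 0.0705 and 0.417 without Ripk3-/- LSK 1, Ripk3-/- LSK 2 and Ripk3-/- LK 2, the last with a difference of 1.25. By edgeR it was 0.112 in WT and 0.257 in Ripk3-/- cells, and by DESeq2 0.298 and 0.528.

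Notch1 (chr2:26457903-26516663, minus strand) encodes the receptor that directs progenitors to the T lineage. It was at 41.3 and 41.8 CPM in WT LSK, 49.995 and 46.5 in Ripk3-/- LSK, 24.2 and 43.9 in WT LK, and 32.6 and 31.8 in Ripk3-/- LK. WT LK 2 lay above both WT LSK libraries, whereas both Ripk3-/- LSK libraries lay above both Ripk3-/- LK libraries. The difference LSK minus LK was 0.34 (95% interval -0.31 to 0.99) in WT and 0.57 (-0.08 to 1.22, adjusted p = 0.227) in Ripk3-/- cells on the log2(CPM + 1) scale, and neither passed. On the deposited signal, which scales LSK and LK separately, the Ripk3-/- difference was 0.93 (adjusted p = 0.0410).

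The transcription factors did not move as one. Ikzf1 (chr11:11685003-11772926, plus strand) was at 92.2 and 173 CPM in WT LSK, 166 and 178 in Ripk3-/- LSK, 114 and 113 in WT LK, and 169 and 145 in Ripk3-/- LK. It was one of the more abundant members in both populations, and its WT LSK libraries lay on either side of the WT LK libraries. The difference LSK minus LK was 0.16 (95% interval -0.34 to 0.65) in WT and 0.13 (-0.36 to 0.63) in Ripk3-/- cells on the log2(CPM + 1) scale.

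Tcf3 (chr10:80409514-80433647, minus strand), which encodes the E2A proteins, was the member called lower in LSK than in LK. Its level was 99.6 and 101 CPM in WT LSK, 109 and 77.1 in Ripk3-/- LSK, 210.0 and 161 in WT LK, and 127 and 164 in Ripk3-/- LK. All LK libraries lay above all LSK libraries. The difference LSK minus LK was -0.87 (SE 0.23, adjusted p = 0.00819) in WT and -0.65 (SE 0.23, adjusted p = 0.0472) in Ripk3-/- cells, on the log2(CPM + 1) scale. In Ripk3-/- cells it did not pass in 14 of the 17 alternatives. Leaving out any library but Ripk3-/- LSK 1 gave an adjusted p of 0.0541 to 0.494, with a difference of -0.31 without Ripk3-/- LSK 2. In WT it was 0.146 without WT LK 1. Without the TMM factor, which moved the median of all genes from 0.08 to 0.46 in WT and from 0.00 to 0.29 in Ripk3-/- cells, the difference was -0.45 in WT and -0.33 in Ripk3-/- cells, with the same direction and neither past the threshold.

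Ebf1 (chr11:44617317-45008091, plus strand) encodes the factor that commits cells to the B lineage. It had 44 and 16 reads in WT LSK, 28 and 0 in Ripk3-/- LSK, 0 and 0 in WT LK, and 47 and 9 in Ripk3-/- LK. It was listed at 0 in both WT LK libraries, so the WT LSK mean of 2.65 CPM was at least 10.8-fold higher than the level at which each WT LK library would have shown 3 reads. Without WT LSK 1 this bound was 5.93-fold, and without WT LSK 2 it was 15.6-fold. The difference of 1.78 on the log2(CPM + 1) scale did not pass in WT (adjusted p = 0.0615), nor did that of -0.63 in Ripk3-/- cells. In WT it passed in 3 of 15 alternatives, among them limma with a pseudocount of 0.1 (adjusted p = 0.0494) and DESeq2 (adjusted p = 0.00879). Ebf1 entered the WT test only through LSK, so these WT values are given as a description and are no support.

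Satb1 (chr17:51736187-51833290, minus strand) encodes the chromatin organizer that lymphoid-biased progenitors express. It was at 43.7 and 55.5 CPM in WT LSK, 111 and 110.5 in Ripk3-/- LSK, 19.0 and 26.4 in WT LK, and 23.1 and 31.8 in Ripk3-/- LK. Each LSK library lay above each LK library, and the Ripk3-/- LSK libraries stood apart from all others. The LSK mean was 2.19-fold the LK mean in WT and 4.03-fold in Ripk3-/- cells. The difference was 1.10 (SE 0.30, adjusted p = 0.00977) in WT and 1.99 (SE 0.30, adjusted p = 3.8e-05) in Ripk3-/- cells, on the log2(CPM + 1) scale. The Ripk3-/- call passed under all 17 alternatives, and the WT call passed under 15, with an adjusted p of 0.0857 without WT LSK 2 and 0.126 without WT LK 1.

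**Figure D1:**
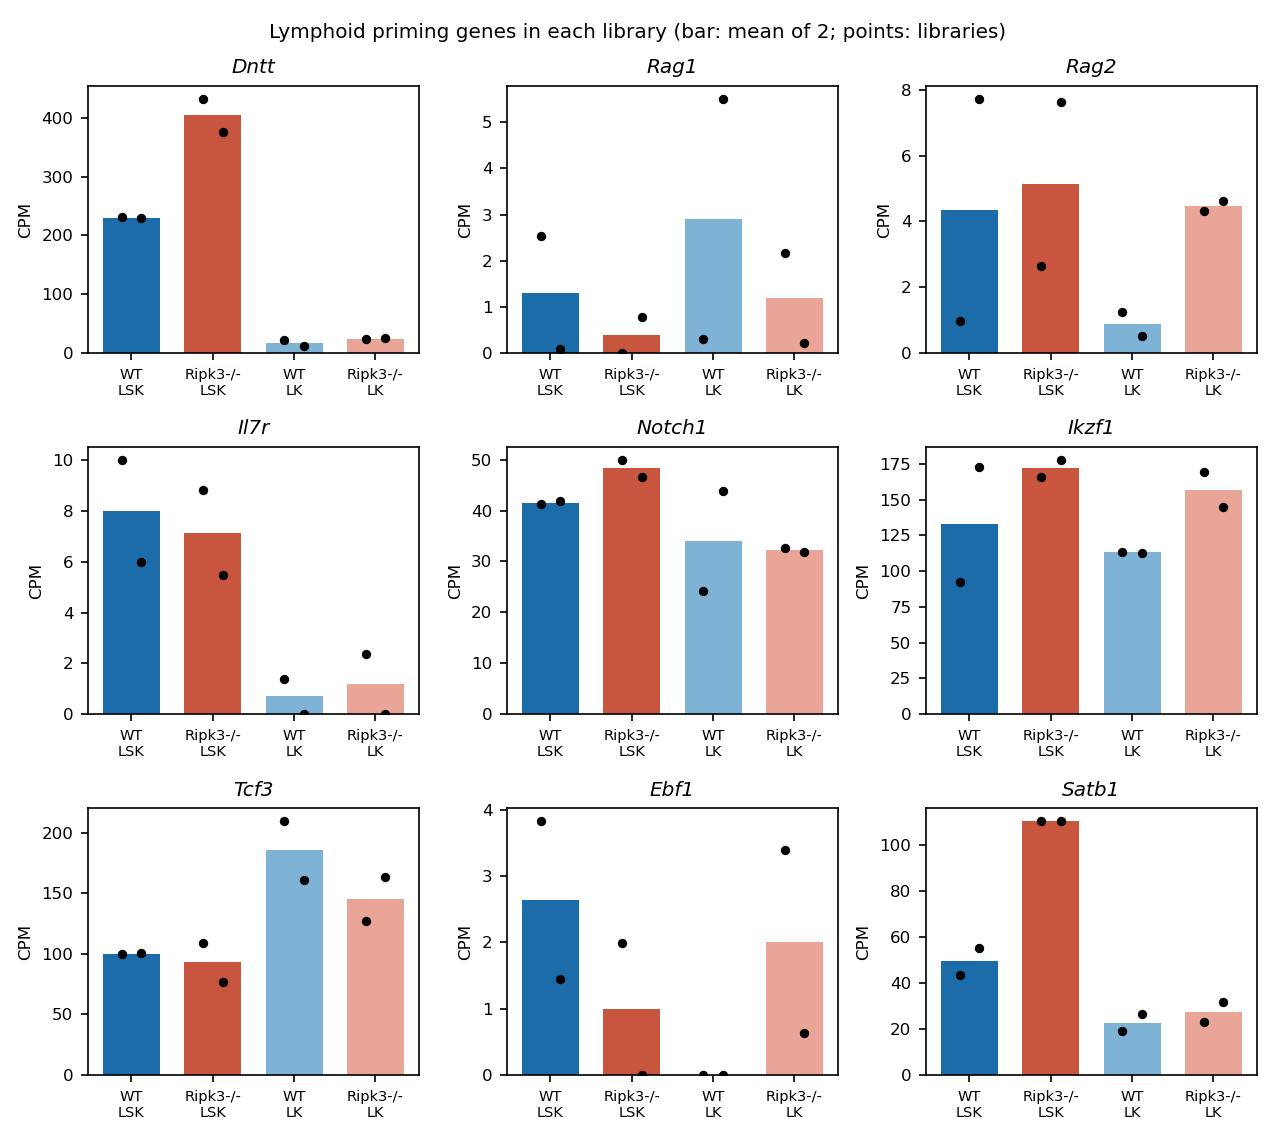
Level of the 9 listed members in CPM (y axes, linear and starting at 0, with a scale of their own for each gene), by genotype and population (x axes), with bars for the mean of 2 libraries and points for the libraries. Dntt, Il7r and Satb1 stood higher in every LSK than in every LK library, Tcf3 stood lower, and the points of Rag1 spread as widely within groups as between them.

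Between LSK and LK, 3 members were higher and 1 lower in LSK in each genotype, of 9 tested in WT and 8 in Ripk3-/- cells, where Rag1 had a mean under 1 CPM. They were Dntt, Il7r and Satb1, and Tcf3. In WT, Il7r, Rag2 and Ebf1 reached a mean of 1 CPM only through LSK, so the WT count is no support, and without these 3 it was 2 higher and 1 lower of 6. Over all genes, 9.16% were higher and 14.8% lower in WT, and 7.95% higher and 12.2% lower in Ripk3-/- cells. Of all genes called in WT, 38.3% were higher in LSK, and 73.6% were without the TMM factor. In Ripk3-/- cells these shares were 39.5% and 65.4%.

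**Figure D2:**
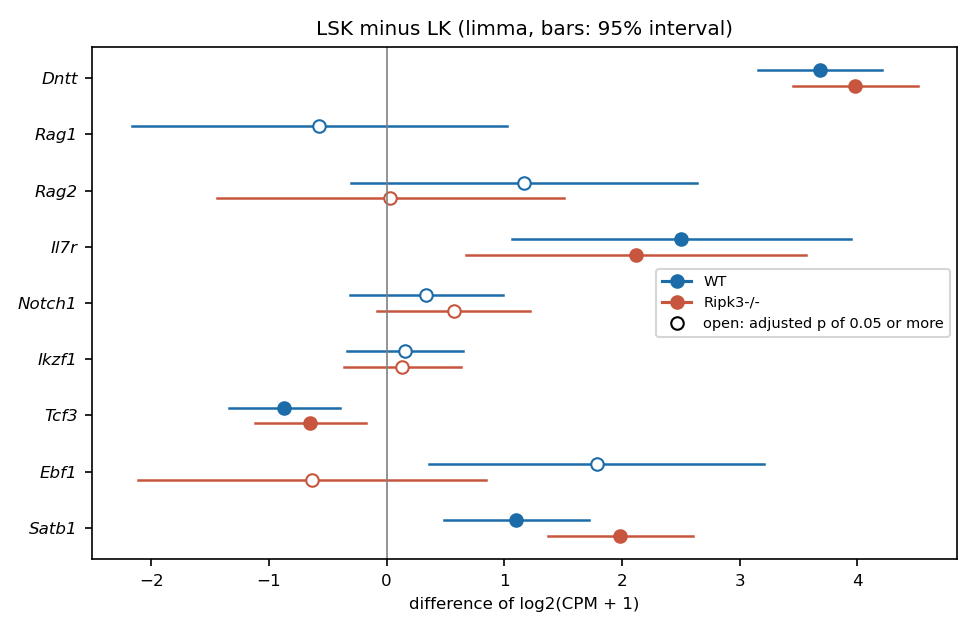
Difference LSK minus LK of log2(CPM + 1) (x axis) for the members (y axis) in WT and Ripk3-/- cells, with 95% intervals from limma, filled where the adjusted p was under 0.05. Dntt stood at 3.68 and 3.98, and Tcf3 lay on the negative side at -0.87 and -0.65. Rag1 has no Ripk3-/- point because its mean was under 1 CPM there.

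Genes were compared only roughly, by CPM per kilobase of exon. The order in WT LSK was Dntt at 100.4 CPM per kb, Tcf3 at 24.8, Ikzf1 at 23.0, Notch1 at 2.92 and Satb1 at 2.61. Below them came Il7r at 1.72, Rag2 at 1.27, Ebf1 at 0.271 and Rag1 at 0.198. Tcf3 and Ikzf1 differed by less than the spread of the Ikzf1 libraries, and the neighbours Notch1 and Satb1, Il7r and Rag2, Rag2 and Ebf1, and Ebf1 and Rag1 likewise lay within the spread of their libraries. In WT LK the order opened with Tcf3 at 45.9 CPM per kb, Ikzf1 at 19.6 and Dntt at 7.70. Exon lengths are those of GENCODE M21 on GRCm38, whereas the reads were mapped to mm9. Each length joins the exons of all annotated transcripts of a gene, from 2.29 kb for Dntt to 19.0 kb for Satb1. It can exceed the length of the transcript expressed, which lowers the level per kb. These levels and their order are therefore approximate.

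The deletion of Ripk3 was compared within each population, on the deposited signal. In LSK, Satb1 was higher in Ripk3-/- cells. Its signal was 49.8 and 63.2 in WT against 125 and 126 in Ripk3-/- LSK, without overlap, and the mean was 2.22-fold that of WT. The difference was 1.15 on the log2(signal + 1) scale (SE 0.29, limma adjusted p = 0.0443). It was the 1 member called of 8 tested, while 0.892% of all 16817 genes were called higher, 1.27% lower and 2.16% in either direction. Of the called genes 41.3% were higher, and 23.5% when libraries were centred on their medians, which moved the median of all genes from -0.01 to -0.12. The call was close to the threshold. It passed in 5 of 16 alternatives, the adjusted p was 0.0507 to 0.175 without any 1 library other than WT LK 1, and it was 0.0605 by edgeR and 0.00830 by DESeq2.

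Dntt came next by its unadjusted p. Its signal was 263 and 262 in WT LSK and 488 and 430 in Ripk3-/- LSK, without overlap, and the mean was 1.75-fold that of WT. The difference of 0.80 on the log2(signal + 1) scale (SE 0.25, 95% interval 0.28 to 1.33) did not pass after adjustment over all genes (adjusted p = 0.103). It passed by DESeq2 (adjusted p = 0.0304) and in a fit of the LSK libraries alone (adjusted p = 0.0263). With 2 libraries against 2, absence of overlap does not set Satb1 and Dntt apart. Notch1 also had none in LSK, with signal of 47.1 and 47.7 in WT against 56.4 and 53.2 in Ripk3-/- LSK. It did not pass (limma adjusted p = 0.770).

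The other LSK members tested had intervals that included 0. The differences on the log2(signal + 1) scale were 0.44 for Ikzf1 (95% interval -0.06 to 0.94), 0.21 for Notch1 (-0.44 to 0.86), 0.46 for Rag2 (-1.05 to 1.96) and -0.15 for Il7r (-1.57 to 1.28). For Tcf3 the difference was -0.13 (-0.60 to 0.34) and for Ebf1 -1.07 (-2.51 to 0.38). The intervals are wide for the genes with few reads, and a 2-fold lower level of Rag2, Il7r or Ebf1 lies inside each of them. Neutrophil markers moved with the genotype in the same libraries. Of 7 measured, 6 were higher in Ripk3-/- LSK, their summed level was 604 to 663 CPM in WT LSK and 2018 to 2360 CPM in Ripk3-/- LSK, and none was at 0. Their part in the differences of Satb1 and Dntt was not tested. Mature B cell markers summed to 82.5 to 93.6 CPM in WT LSK and 77.8 to 95.7 CPM in Ripk3-/- LSK, and T cell markers to 31.1 to 33.0 CPM and 18.4 to 23.1 CPM, with none called in either list.

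**Figure D3:**
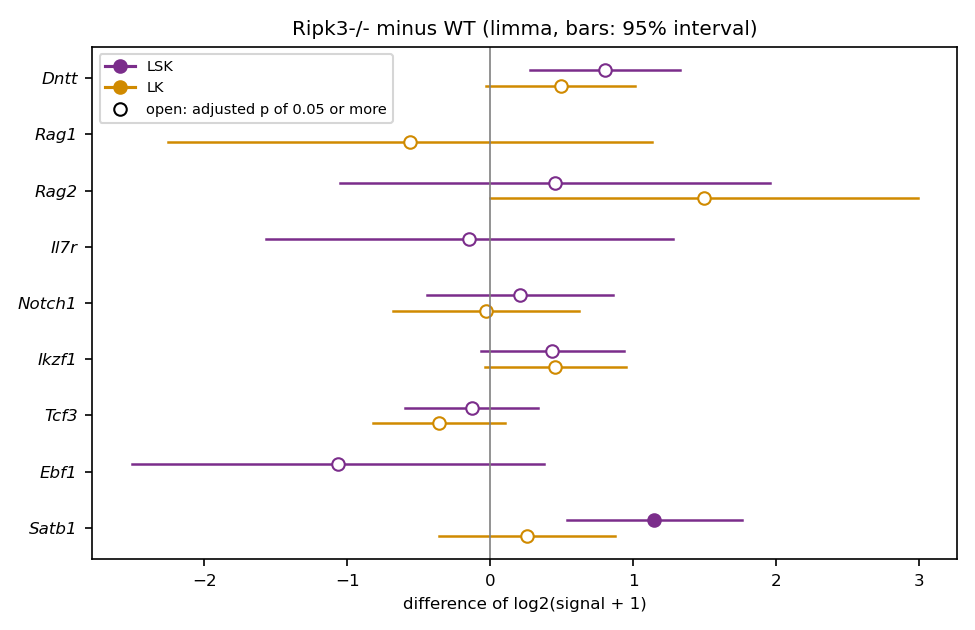
Difference Ripk3-/- minus WT of log2(signal + 1) (x axis) for the members (y axis) in LSK and in LK, with 95% intervals from limma, filled where the adjusted p was under 0.05. Satb1 in LSK, at 1.15, is the 1 filled point. Members with a mean signal under 1 in a population have no point there.

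In LK, 0 of 7 members tested were called by limma, 0 passed at an unadjusted p under 0.05, and edgeR and DESeq2 each called 0 (DESeq2 gave no adjusted p for Rag1 and Rag2), against 0.473% of all 13949 genes called. Rag2 had the largest difference, 1.496 on the log2(signal + 1) scale (95% interval -0.0019 to 2.99, adjusted p = 0.760), with signal of 1.09 and 0.458 in WT against 3.80 and 4.04 in Ripk3-/- LK. Its mean signal in WT LK was 0.772, so Rag2 entered this test only through Ripk3-/- LK, and its difference is given as a description. Dntt had signal of 19.8 and 11.3 in WT against 21.4 and 21.6 in Ripk3-/- LK, a difference of 0.49 (-0.03 to 1.02, adjusted p = 0.786), and Satb1 a difference of 0.26 (-0.36 to 0.87). Il7r and Ebf1 had a mean signal under 1 and were not tested there. The neutrophil markers summed to 871 to 887 CPM in WT LK and 1900 to 1910 CPM in Ripk3-/- LK, with 5 of 7 called higher.

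Whether the deletion acted unlike in LSK and in LK was tested as the difference of the genotype differences. None of 9 members passed by limma, edgeR or DESeq2, while 0.358% of all 15901 genes did by limma. At an unadjusted p under 0.05 there were 2 members. For Satb1 the value was 0.89 on the log2(signal + 1) scale (95% interval 0.03 to 1.76, adjusted p = 0.481), and for Ebf1 it was -2.38 (-4.47 to -0.30, adjusted p = 0.433). For Dntt it was 0.31 (-0.43 to 1.05). A genotype difference of Satb1 in LSK alone is therefore not shown.

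The genes around the members were taken as 8 lists with 98 genes. Between genotypes in LSK, 2 of 94 tested were higher (2.13%) and 3 lower (3.19%), against 0.892% and 1.27% over all genes. In LK 0 of 85 passed, against 0.473% over all genes. In the test of the difference between LSK and LK 1 of 93 passed (1.08%), against 0.358% over all genes. These counts are small, and whether they exceed the shares over all genes was not tested. Among 12 genes of lymphoid-primed progenitors, Flt3, the receptor that marks lymphoid-primed MPPs, had signal of 555 and 473 in WT LSK and 874 and 886 in Ripk3-/- LSK, and rose by 0.78 on the log2(signal + 1) scale (SE 0.19, adjusted p = 0.0298). Il12a, which encodes a subunit of interleukin 12, went from 49.7 and 75.4 to 136 and 155 and rose by 1.23 (SE 0.27, adjusted p = 0.0177). Neither gene overlapped between genotypes, which was also so for Notch1, a gene that did not pass. The median of that list was 0.37, against -0.01 over all genes. The Flt3 call was lost without each of the 4 LSK libraries (adjusted p of 0.0724 to 0.165), with median-centred libraries (0.0696) and with no filter (0.0725), and the Il12a call without WT LSK 1, Ripk3-/- LSK 1 or Ripk3-/- LSK 2 (0.123, 0.0848 and 0.147) and with no filter (0.0534).

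Among the 7 E proteins and inhibitors, Id3, which binds E proteins such as those of Tcf3 and keeps them off DNA, was lower in Ripk3-/- LSK. Its signal was 103 and 114 in WT against 42.6 and 36.3 in Ripk3-/- LSK, and it fell by 1.44 on the log2(signal + 1) scale (SE 0.32, adjusted p = 0.0207). The call was lost without each of the 4 LSK libraries (adjusted p of 0.0794 to 0.140). In the list of V(D)J end joining, the genes of the DNA-bending proteins Hmgb1 and Hmgb2, which assist the recombinase, were lower. Hmgb1 had signal of 356 and 391 in WT LSK and 103 and 112 in Ripk3-/- LSK and fell by 1.79 (SE 0.17, adjusted p = 2.8e-06). Hmgb2 had 441 and 461 against 215 and 226 and fell by 1.03 (SE 0.16, adjusted p = 0.000578). Transcripts of 135 other genes match Hmgb1, and of 12 match Hmgb2, over at least 200 bases at 90% identity or more, so both counts are uncertain. Among the members, matches of this kind were found only where annotated genes overlap Rag2 and Notch1.

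Between LSK and LK, 24 list genes were higher and 11 lower in LSK of 94 tested in WT, and 27 and 13 of 90 in Ripk3-/- cells. The higher genes were 25.5% of those tested in WT and 30.0% in Ripk3-/- cells, against 9.16% and 7.95% over all genes, and the lower genes 11.7% and 14.4%, against 14.8% and 12.2%. Of the 12 lymphoid-primed progenitor genes, 7 were higher and 2 lower in WT LSK, and 10 and 2 in Ripk3-/- LSK, with medians of 1.18 and 1.63 on the log2(CPM + 1) scale. The largest were Lax1, an adaptor of lymphocyte receptor signaling, at 4.79 in WT and 3.75 in Ripk3-/- cells, Flt3 at 2.81 and 3.09, and Ly6d, a marker of early lymphoid progenitors, at 2.80 and 3.33. Of 12 T lineage genes, 5 were higher in LSK in each genotype, led by the Notch target Hes1 (4.28 and 4.59), Gata3 (2.32 and 2.65) and Lck (2.18 and 2.58). In Ripk3-/- LK, Hes1 was at 0.432 and 0.0712 CPM and Ly6d at 0.432 and 0.712 CPM. Both entered the Ripk3-/- test only through LSK, so their values there are given as a description. The counts of list genes called higher include such genes. Of 12 B lineage genes, 2 were higher in each genotype, of 11 and 10 tested.

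The lists tied to single members were mixed. Of the 7 E proteins and inhibitors, 4 were higher in LSK and none lower in each genotype, among them Id3 at 2.28 in WT and 1.43 in Ripk3-/- cells, Id1 at 2.05 and 2.08, and the E protein gene Tcf4 at 0.83 and 1.34. Their direction was opposite to that of Tcf3. In the list of the Ikaros family and its NuRD partners, Ikzf2 was higher in LSK (1.35 and 0.84), whereas the NuRD subunit genes Mta2 (-1.03 and -0.9998) and Rbbp4 (-0.91 and -0.81) were lower. In the Notch pathway, 3 genes were higher and 3 lower in WT, and 1 and 5 in Ripk3-/- cells, with the coactivator Maml2 higher (1.84 and 1.76) and Ncstn, which encodes a gamma-secretase subunit, lower (-0.93 and -0.89). In the IL-7 receptor list, 2 of 10 were higher in WT and 4 in Ripk3-/- cells, with Il2rg, the common gamma chain that pairs with Il7r, at 1.52 and 1.49 and Cish at 1.17 and 2.91. Il2rg passed under all 17 alternatives in both genotypes. Cish passed under all 17 in Ripk3-/- cells but under 10 in WT, with 0.60 (adjusted p = 0.426) without WT LK 1, and an adjusted p of 0.102 without WT LSK 1 and 0.172 without WT LSK 2. Of 12 end joining genes, 0 were higher in either genotype, and 2 were lower in WT and 3 in Ripk3-/- cells, Hmgb1 (-0.55 and -2.20) and Hmgb2 (-0.54 and -1.46) among them. Both passed under all 17 alternatives in Ripk3-/- cells. In WT, Hmgb1 passed under 10 and Hmgb2 under 11, and without the TMM factor the differences were -0.12 and -0.11. The WT call of Hmgb1 was lost without WT LSK 1, WT LSK 2 or WT LK 1 (adjusted p of 0.134, 0.0585 and 0.309, the last with a difference of -0.36), and that of Hmgb2 without WT LSK 1, WT LK 1 or WT LK 2 (0.0832, 0.109 and 0.0713). With the replicate block the adjusted p was 0.0678 and 0.0556. Ikzf2 in Ripk3-/- cells passed under 10, and was lost without each of the 4 Ripk3-/- libraries (0.0942 to 0.161). Other calls named from the lists also rested on single libraries. In WT, that of Ly6d was lost without WT LK 1 (adjusted p = 0.0618), that of Tcf4 without WT LSK 1 or WT LK 1 (0.0536 and 0.104), that of Maml2 without WT LSK 1, WT LSK 2 or WT LK 2 (0.0527, 0.0524 and 0.0840) and that of Ncstn without WT LK 1 (0.0719). In Ripk3-/- cells, that of Maml2 was lost without LSK 1, LSK 2 or LK 2 (0.0614, 0.0808 and 0.188), that of Ncstn without LSK 2 or LK 2 (0.208 and 0.0862) and that of Mta2 without LSK 2 (0.0894). Of 39 LSK against LK calls of the genes that the naming rule took from the lists, 26 passed under all 17 alternatives and 0 changed direction under any.

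**Figure D4:**
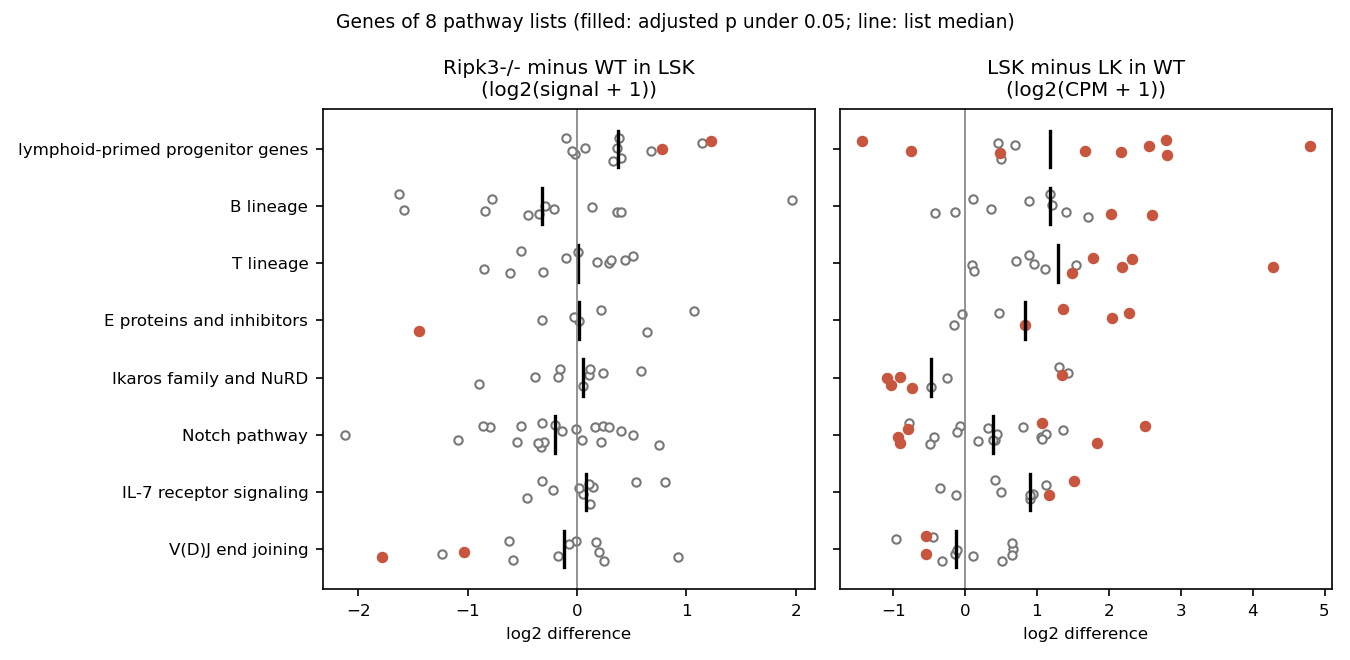
Log2 differences (x axes) of the genes of 8 lists (y axis) for Ripk3-/- minus WT in LSK (left, log2(signal + 1)) and LSK minus LK in WT (right, log2(CPM + 1)), filled where the adjusted p was under 0.05, with a line at each list's median. On the left 5 points are filled, Flt3 and Il12a to the right of 0 and Id3, Hmgb1 and Hmgb2 to the left. On the right most filled points of the first 4 lists lie above 0.

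The genes whose pattern over the 8 libraries was most like that of Dntt were found by the root mean square difference of log2(CPM + 1) after centring each of 15757 genes on its own mean. They were abParts (0.247), Tbxa2r (0.252), Hlf (0.301), Tnfrsf13c (0.304) and H2-Aa (0.332). The row abParts collects parts of antibody genes. It was at 2107 and 2168 CPM in WT LSK, 3601 and 3305 in Ripk3-/- LSK, 277 and 187 in WT LK, and 215 and 216 in Ripk3-/- LK. Tbxa2r encodes the thromboxane receptor, Hlf a transcription factor of HSCs, Tnfrsf13c the BAFF receptor of B cells and H2-Aa a chain of MHC class II. Of the other members, Il7r ranked 204 and Satb1 511 by the same measure, and Tcf3 13480. These values describe 8 libraries of 4 groups, and any step between groups that the 5 genes share with Dntt follows from how they were chosen.

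**Figure D5:**
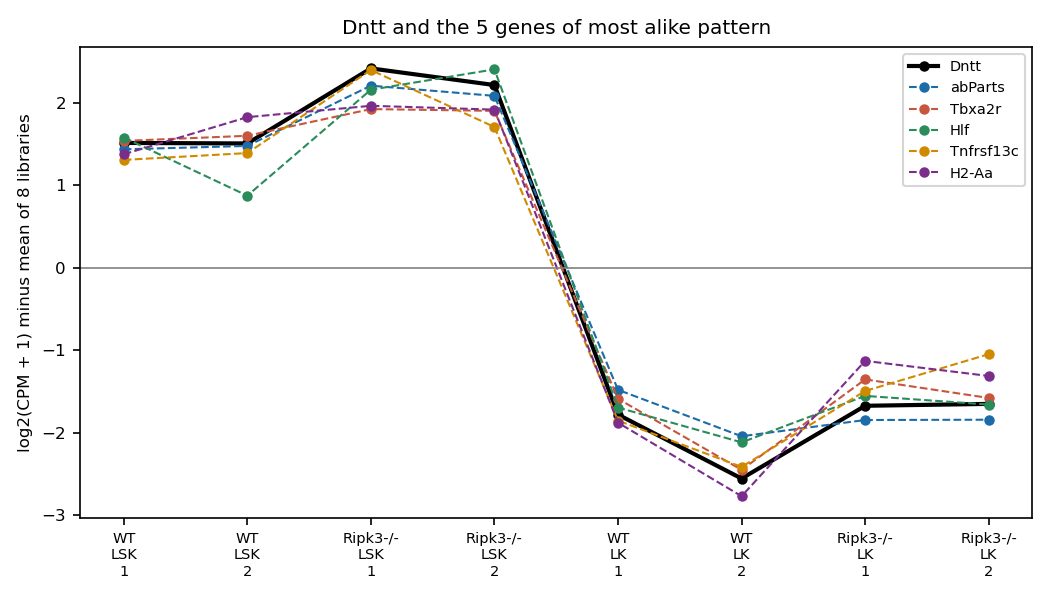
Log2(CPM + 1) minus each gene's mean over the 8 libraries (y axis) for Dntt and the 5 genes of most alike pattern, library by library (x axis). All 6 genes lie above 0 in the 4 LSK and below 0 in the 4 LK libraries, as the choice of the 5 genes fixes.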

How the data were processed

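RNA-seq libraries (TruSeq Stranded mRNA) from sorted LSK and LK cells were used as deposited, 1 table per library. The submitters' processing notes name TopHat and mm9. The counting tool and annotation are not given in the sources used here. The column heading says FPKM, but in every library 100% of values above 0 were whole multiples of 1 step within 0.01, so the signal deposited by the authors is reads per 1000000 scaled by TMM factors within LSK and within LK, with no division by length. Reads were recovered by dividing by the step (1 read is 0.0621 to 0.104 signal). The design assumed FPKM and was kept on signal.

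Genotype contrasts and their difference were fitted with limma 3.58.1 (trend, 4 group means, all 8 libraries) on log2(signal + 1), and LSK against LK on log2(CPM + 1) of recovered reads with edgeR 4.0.16 TMM factors over all libraries, in R 4.3.3. Limma's tests are two-sided and take each gene's spread from all 4 groups, drawn toward a trend over genes. Groups of 2 can therefore pass, whereas an exact permutation of 2 against 2 cannot go below p = 0.333. Genes with a mean under 1 in the libraries compared were not tested. P-values were adjusted by Benjamini-Hochberg over all genes tested, and a gene was called at an adjusted p under 0.05. Contrasts share libraries with one another. The fits were tested on simulated data.

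Members and lists were chosen with earlier results of these data known. List genes were named when they passed between genotypes or were among the 3 largest of their list that passed between LSK and LK in both genotypes. A list gene that meets this rule is not reported here. For likeness to Dntt, 5 genes were named. Alternatives were DESeq2 1.42.0 and edgeR quasi-likelihood on recovered reads, a pseudocount of 0.1, no filter and a mean of at least 5, other scalings, a replicate block, separate fits and leaving out each library.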

Additional observations from a re-analysis of the deposited data

Results flagged for a closer look

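Hmgb1, a gene of the end joining list, differed between LSK and LK in its response to the genotype. The genotype difference in LSK minus that in LK was -1.65 on the log2(signal + 1) scale (limma adjusted p = 0.00209), from -1.79 in LSK and -0.14 in LK. It passed in 14 of 15 alternatives, and not with no filter (adjusted p = 0.149). In LK its signal was 479 and 372 in WT against 387 and 381 in Ripk3-/- libraries.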

How the results depend on the processing

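The number of members called for the genotype in LSK was 1. It was 0 with a pseudocount of 0.1, with no filter, with median-centred libraries and by edgeR, 2 by DESeq2 and in the separate fit of LSK, and 0 to 1 with each library left out. For LSK against LK it was 4 in each genotype, 2 to 5 in WT and 2 to 3 in Ripk3-/- cells with each library left out, and in Ripk3-/- cells 2 with a pseudocount of 0.1, with no filter, by edgeR and by DESeq2. The count in LK and that for the difference between LSK and LK stayed at 0 under every alternative run. The cause of these changes was not tested, except that leaving out a library leaves fewer samples.

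Over all genes, the LSK genotype count of 363 became 198 with no filter, 237 by edgeR, 613 by DESeq2, 195 in the separate fit and 99 to 262 with each library left out. In LK 66 became 9, 177 by DESeq2, 125 in the separate fit and 13 to 101, where 9 is with no filter. The count of 57 for the difference became 3 with no filter, 155 by DESeq2 and 17 to 90. Counts of 3814 in WT and 3072 in Ripk3-/- cells for LSK against LK fell as low as 1501 without WT LK 1 and 1487 without Ripk3-/- LK 2.

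Members that were not called changed sign when 1 library was left out, with these ranges in log2 units. For the genotype in LSK they were -0.66 to 1.57 for Rag2, -0.48 to 0.19 for Il7r, -0.015 to 0.89 for Ikzf1 and -0.37 to 0.11 for Tcf3. In LK they were -1.67 to 0.085 for Rag1 and -0.45 to 0.39 for Notch1. For the difference they were -0.070 to 0.69 for Dntt, -0.94 to 1.071 for Rag1, -2.15 to 0.074 for Rag2, -1.20 to 0.43 for Il7r, -0.19 to 0.66 for Notch1, -0.47 to 0.43 for Ikzf1 and -0.015 to 0.47 for Tcf3. For LSK against LK they were -1.75 to 0.25 for Rag1, -0.078 to 0.75 for Notch1 and -0.32 to 0.61 for Ikzf1 in WT, and -0.52 to 0.68 for Rag2 and -1.40 to 0.21 for Ebf1 in Ripk3-/- cells. There, median-centring gave -0.11 for Rag2 and -0.012 for Ikzf1.

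Replicate numbers do not pair the samples by the labels, and differences of replicate 1 minus 2 correlated between groups at -0.149 to 0.0538. With the replicate block, 4 members were called for LSK against LK in WT and 3 in Ripk3-/- cells, 1 for the genotype in LSK and 0 in LK and for the difference. Depth limits Rag1, Rag2, Il7r and Ebf1, where 3 reads equal 0.186 to 0.311 signal.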

Other observations

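Igj, which encodes the joining chain of IgM and IgA and was 1 of 4 measured plasma cell markers, was at 192 and 191 CPM in WT LSK, 236 and 297 in Ripk3-/- LSK, 0.697 and 0 in WT LK, and 0 and 3.56 in Ripk3-/- LK. In LSK it made up most of the summed plasma cell level, which was 217 to 317 CPM. In LK that sum was 4.10 to 8.32 CPM. Igj was singled out after its values were seen.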
